A study of Mus musculus with 18 samples.

Results

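The response of mouse embryonic stem (ES) cells to 8 h of retinoic acid (RA) was compared between wild-type cells and cells with both copies of Cyp26a1 disrupted, called knockout here. The quantity is a difference of responses: in each replicate, the log2 change from control to RA in the knockout minus the same change in wild type. A positive value means that the response was more positive in the knockout. The comparison rests on 12 of the 18 arrays of the series, 3 in each of 4 groups, chosen by genotype, treatment and time alone. The groups were wild-type control, wild-type RA, knockout control and knockout RA. All were cells of the AB1 line in medium with LIF (leukemia inhibitory factor), which holds mouse ES cells undifferentiated. RA was given at 100 nM for 8 h, and the controls received no RA. Whether the knockout line was a single clone is not given in the sources used here. Total RNA of each sample was read on an Affymetrix array after 3' amplification.

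RA is the active derivative of vitamin A. It binds receptors of the RAR family, which sit with RXR partners on DNA and switch on target genes such as Cyp26a1, Rarb, Stra8 and early Hox and Cdx genes. Cyp26a1 encodes a cytochrome P450 that oxidises RA to more polar products, so that RA induces an enzyme of its own breakdown. The comparison asks whether cells that lack this enzyme answer the same dose of RA differently within the first hours.

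The median signal of the 12 arrays ranged from 56.5 to 69.7 units, and 39.9% to 43.3% of the probe sets reached 100 units. Signals under 50 units entered at 50, which touched 42.8% to 47.3% of the probe sets of an array. All 8 ES cell markers reached 100 units on every array. Of 14 fibroblast feeder markers, 7 to 10 lay at the floor on all arrays of a group, Col1a1 and Dcn among them. Others did not: 2 to 3 of the 14 reached 100 units on all arrays of a group, among them Thy1, at 170 to 717 units. The summed signal of all 14 ranged from 736 to 1372 units against 98669 to 117591 for the ES cell markers. The replicate 1 control arrays go against their LIF labels. Socs3, a gene induced by LIF, read 367 units on the wild-type array labelled control with LIF and 215 on the knockout one. It read 3800 and 4551 units on the arrays labelled control without LIF, which enter no comparison here, and 3102 to 6001 units on the other 10 arrays. A set of 57 genes was followed under the alternatives. Where a difference moves by over 1.5 times when these labels are exchanged within each genotype, both values are given.

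No gene passed the test of the difference of responses. Of 10834 genes tested, 0 (0%) were called by limma at an adjusted p of 0.05, and the smallest adjusted p, that of Cyp26a1, was 0.830. An unadjusted p under 0.05 was reached by 403 genes (3.72%), of which 220 (2.03%) were more positive in the knockout and 183 (1.69%) more negative. All 3 differences had one sign in 2554 genes (23.6%). With only 3 differences per gene, an exact sign test cannot go below p = 0.25. The median standard error of a difference was 0.20 on the log2 scale, and for 8937 genes (82.5%) the 95% interval lay within 1 log2 unit of 0 on both sides. Without replicate 3, which leaves 2 differences per gene, 36 genes were called, 32 of them more positive in the knockout, and Cyp26a1 was among the 4 more negative ones. Without replicate 1 the only gene called was Nwd1. Where controls lie under the floor, a rise is a lower bound, and a difference that involves such groups is given as computed and is not a bound. Below, "±" is the limma standard error of a mean over 3 replicates, with the spread shared across genes. It can thus differ from the spread of the 3 values printed. "Called" means past the adjusted p of 0.05 in limma. The limma adjusted p of the difference was 0.998 for every gene described other than Cyp26a1.

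RA itself moved many genes. In the mean response of both genotypes limma called 455 genes (4.2%), 299 higher (2.76%) and 156 lower (1.44%). In wild type alone 282 of 10457 genes (2.7%) were called, 200 higher (1.91%) and 82 lower (0.784%). In the knockout alone 196 of 10282 (1.91%) were called, 149 higher (1.45%) and 47 lower (0.457%). These single-genotype counts share no arrays, and the gap between them is not a test of the difference. Over the 299 genes called higher, the median log2 rise was 0.66 in wild-type cells and 0.69 in knockout cells. Their difference was positive in 165 and negative in 134, with a median of 0.03 beside -0.01 over all genes tested. The median was 0.05, -0.09 and 0.10 in replicates 1, 2 and 3. All 3 differences were positive in 45 of them and negative in 35, together 26.8% beside 23.6% of all genes. Of the 76 genes with a mean rise of at least 1 log2 unit, 37 had a positive and 39 a negative difference, and the median was -0.02. An unadjusted limma p under 0.05 was reached by 5 of the 76 with a positive and 3 with a negative difference. That is 10.5%, beside 6.02% of the 299 and 3.72% of all genes. All 3 differences had one sign in 32.9% of the 76. For 261 of the 299 the 95% interval lay within 1 log2 unit of 0. Over the 156 genes called lower the median was -0.02. With the LIF labels exchanged 805 genes were called higher, and their median difference was 0.02.

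**Figure D1:**
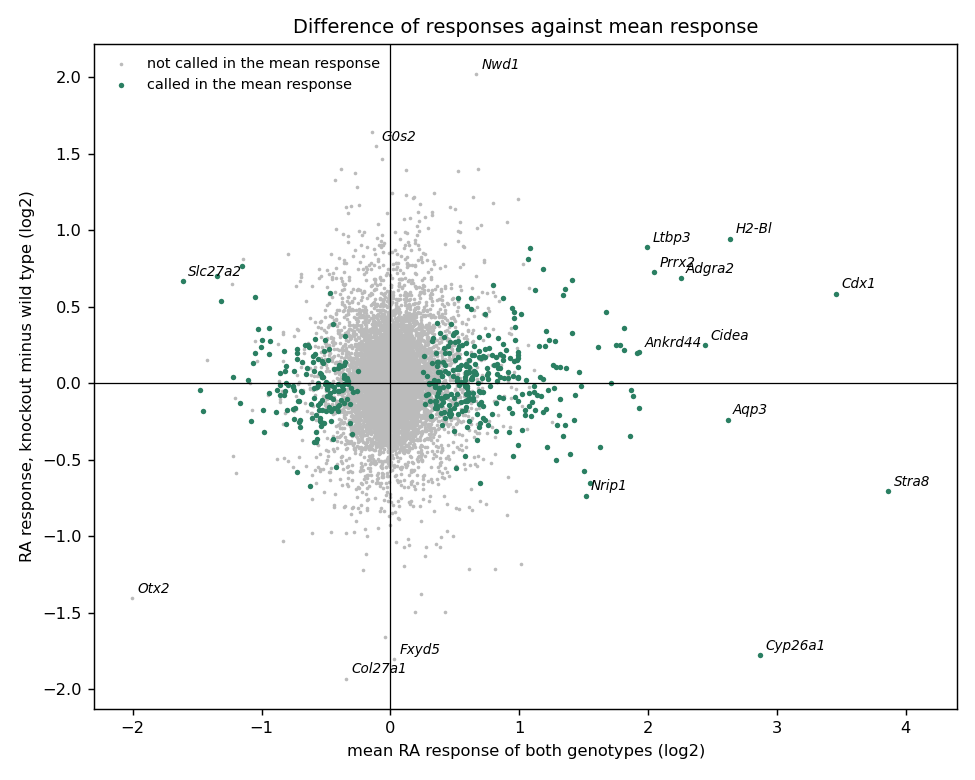
Each point is 1 of the 10834 genes tested. The x axis is the mean log2 response to RA of both genotypes and the y axis is the knockout response minus the wild-type response on the log2 scale, with the 455 genes called in the mean response in green. The points called on the right lie on both sides of 0, and Cyp26a1, at -1.78, stands lowest among them.

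Cyp26a1, the disrupted gene, had the smallest p of all genes. In wild type it read 17.5, 84.2 and 71.9 units in the controls and 637, 1695 and 691 units with RA in replicates 1, 2 and 3. In the knockout it read 52.6, 9.81 and 23.3 units in the controls and 193, 216 and 193 units with RA. Every RA array lay above every control array, and the knockout RA arrays lay below all wild-type RA arrays, while the control groups overlapped. With 1 wild-type and 2 knockout controls under the floor, the rises are lower bounds. The rise was at least 13.5-fold in wild type, 3.76 ± 0.22 on the log2 scale (limma adjusted p = 4.7e-05). In the knockout it was at least 3.94-fold, 1.98 ± 0.28 (limma adjusted p = 0.00806). The difference was -1.78 ± 0.32 with a 95% interval of -2.46 to -1.09, and its 3 values were -1.79, -2.22 and -1.32. Its unadjusted limma p was 7.66e-05, which gave the adjusted p of 0.830, and without replicate 3 the value was -2.01 with a limma adjusted p of 0.00354. The sources used here do not say whether the probe set for Cyp26a1 lies inside the disrupted part of the gene, so its signal in the knockout checks neither the label nor the presence of a working enzyme. In cultures measured in bulk, fewer responding cells and less RNA per cell cannot be told apart. At 72 h of RA, Cyp26a1 read 3402 and 3211 units in wild type and 2873 and 3075 in the knockout.

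The promoters of Cyp26a1 and 2 other RA-induced genes are shown because RAR and RXR bind pairs of short hexamers next to such start sites. The windows end at the base before the start site and were taken from RefSeq (GRCm38.p6), in the direction of the gene. Capitals mark the hexamers AGGTCA or AGTTCA or GGGTCA or GGTTCA on either strand, and matches can overlap. The windows are chr19:37697608-37697807 on the plus strand for Cyp26a1, chr14:16575477-16575676 on the minus strand for Rarb and chr6:34920748-34920947 on the plus strand for Stra8.
Cyp26a1: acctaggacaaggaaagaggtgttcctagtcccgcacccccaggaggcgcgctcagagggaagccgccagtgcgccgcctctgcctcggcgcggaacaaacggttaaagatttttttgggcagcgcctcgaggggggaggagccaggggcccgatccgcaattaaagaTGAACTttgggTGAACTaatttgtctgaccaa
Rarb: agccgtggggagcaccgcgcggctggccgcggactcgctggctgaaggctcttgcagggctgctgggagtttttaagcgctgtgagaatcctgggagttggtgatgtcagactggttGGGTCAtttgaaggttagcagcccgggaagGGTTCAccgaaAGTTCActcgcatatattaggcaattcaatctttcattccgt
Stra8: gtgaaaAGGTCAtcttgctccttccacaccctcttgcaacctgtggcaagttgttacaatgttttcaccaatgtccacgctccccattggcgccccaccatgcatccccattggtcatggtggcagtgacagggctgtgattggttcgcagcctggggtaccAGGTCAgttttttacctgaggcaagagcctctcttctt
A direct repeat of these hexamers with a gap of 5 bases begins 32 bases before the start site in Cyp26a1, where it reads AGTTCA on the opposite strand, and 53 bases before it in Rarb. Such a repeat is held by 32 of 32851 RefSeq promoter windows of 300 bases (0.0974%) and by 4 of the 11306 windows of tested genes (0.0354%). Of the 340 windows that belong to genes called higher in the mean response, 2 (0.588%) hold it, those of Cyp26a1 and Rarb. Both were picked for display as RA-induced genes, so this share is no independent evidence. Stra8 holds 2 hexamers AGGTCA, at 194 and 38 bases before its start site, and no such repeat. A match describes letters and does not show a bound site. Cyp26a1 and Rarb, which both hold the repeat, had differences of -1.78 and 0.04.

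Stra8, named for its induction by RA and required for meiosis, had the largest rise of all genes called. In wild type it read 184, 161 and 87.3 units in the controls and 2516, 3549 and 1861 with RA. In the knockout it read 148, 158 and 146 units in the controls and 1238, 1875 and 2192 with RA. All RA arrays lay far above all controls in both genotypes, and the RA groups of the 2 genotypes overlapped. Stra8 rose 18.6-fold in wild type and 11.4-fold in the knockout (limma adjusted p = 1.04e-06 and 2.71e-05). The difference was -0.71 ± 0.19, with values of -0.71, -0.89 and -0.51 and an unadjusted limma p of 0.00254. With the LIF labels exchanged it was -0.39.

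Nrip1, a cofactor that binds ligand-bound nuclear receptors and represses their targets, read 235, 233 and 293 units in wild-type controls and 750, 1029 and 1042 with RA. In the knockout it read 290, 239 and 270 units in controls and 502, 577 and 700 with RA. The control groups overlapped, and the knockout RA arrays all lay below the wild-type RA arrays. Nrip1 rose on the log2 scale by 1.88 ± 0.14 in wild type and by 1.15 ± 0.17 in the knockout (limma adjusted p = 0.000238 and 0.00914). The difference was -0.73 ± 0.21, with values of -0.89, -0.87 and -0.45 and an unadjusted limma p of 0.00345. Averaged over its 6 probe sets the difference of Nrip1 was -0.47. Of its other probe sets, that with 9 arrays at 100 units gave -0.03, and those with 5 and 4 such arrays gave -1.16 and -0.90.

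**Figure D2:**
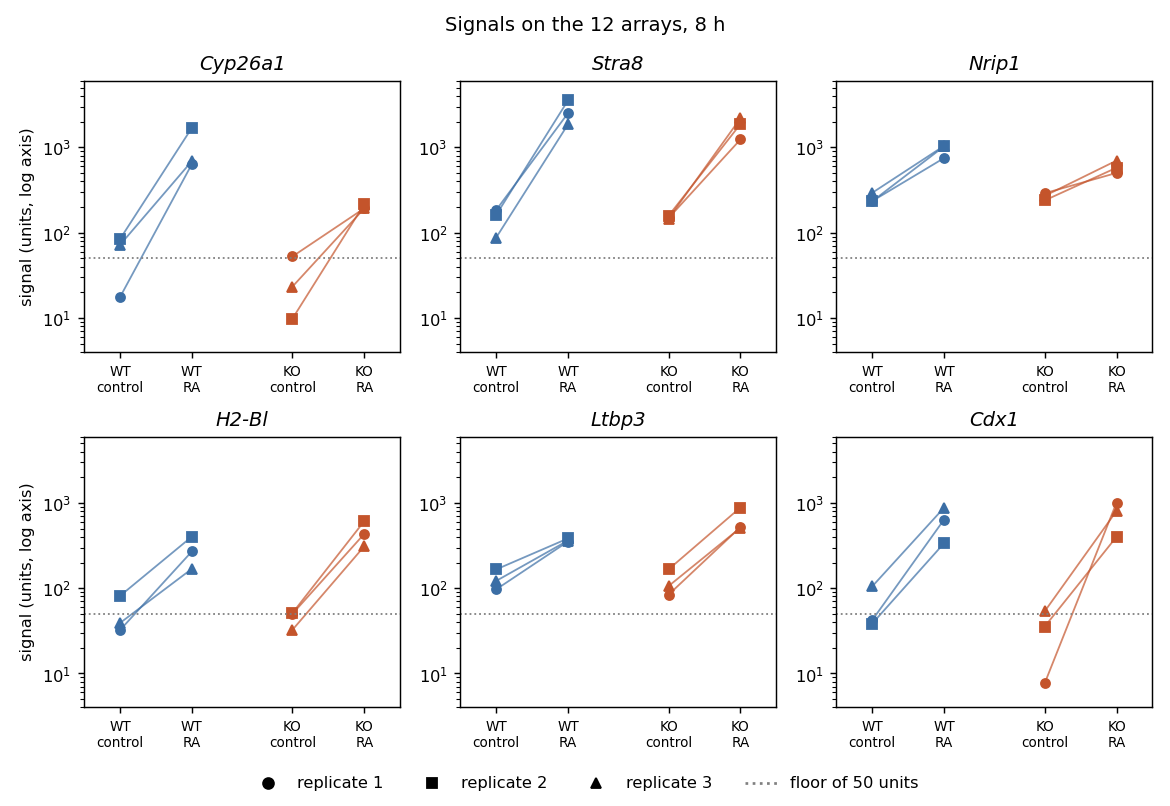
Signals of 6 genes on the 12 arrays, on a log axis in units of the deposited table. Lines join control and RA of 1 replicate, wild type (WT) in blue and knockout (KO) in orange, and the dotted line is the floor of 50 units below which values entered at 50. The knockout RA points of Cyp26a1 and Nrip1 lie below all wild-type RA points, and those of Ltbp3 lie above them.

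The retinoid pathway as a whole was listed in 3 groups of genes. Not every listed gene was on the array or bright enough to test: 10 of 18 RA-induced genes, 12 of 22 enzymes and carriers and 12 of 16 receptors and cofactors were. Of the 10 RA-induced genes tested, 6 rose in the mean response (Cyp26a1, Rarb, Stra8, Dhrs3, Cdx1 and Nrip1), beside 2.76% of all genes, and none fell. Their differences were positive in 5 genes and negative in 5, from -1.78 to 1.06, with a median of -0.20 beside -0.01 over all genes. All 3 replicates were negative in 4 (Cyp26a1, Stra8, Dhrs3 and Nrip1) and positive in 2 (Cdx1 and Tgm2), together 60% beside 23.6% of all genes. These genes were listed with the study's RA treatment in mind and were partly known to respond in these samples, so the list gives no independent evidence of direction.

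Among enzymes and carriers of retinoids, 12 genes were tested and the median difference was 0.03. Dhrs3, a reductase that returns retinal to retinol and so lowers RA synthesis, read 13.7, 68.2 and 30.8 units in wild-type controls and 142, 238 and 206 with RA. It read 77.6, 17.7 and 7.73 units in knockout controls and 114, 142 and 149 with RA. Dhrs3 rose in wild type (1.79 ± 0.28, limma adjusted p = 0.00856), while its value in the knockout was 1.21 ± 0.34 (limma adjusted p = 0.127). The difference was -0.57 ± 0.39, with a 95% interval of -1.41 to 0.27 that includes 0, and it was -0.29 on the scale of log2(signal + 32). Stra6, the membrane receptor that takes up retinol, lay at the floor on all 3 knockout controls. With RA it read 113, 121 and 179 units in the knockout, and 138, 31.9 and 69.2 in wild type after controls of 51.7, 84.9 and 42.1. The 3 differences of Stra6 were -0.25, 2.04 and 1.37, and their mean of 1.06 depended on the floor, falling to 0.27 with a floor of 100 units and reaching 2.19 with one of 25. It was 1.71 without replicate 1 and 0.56 without replicate 2. Crabp2, which carries RA to the nucleus, had a difference of 0.03 ± 0.27.

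Of 12 receptors and cofactors tested, 9 had a positive and 3 a negative difference, with a median of 0.10. Rara, Rarb, Rarg, Nrip1 and Nr6a1 rose in the mean response. Nr6a1, an orphan receptor that represses Pou5f1 during differentiation, read 1137, 939 and 855 units in wild-type controls and 1846, 1524 and 1461 with RA. In the knockout it read 834, 758 and 721 units in controls and 1672, 1787 and 1804 with RA. The knockout controls lay below all wild-type controls, and the RA groups overlapped. Nr6a1 rose by 0.72 ± 0.10 in wild type and by 1.19 ± 0.12 in the knockout (limma adjusted p = 0.00464 and 0.00143). Its difference was 0.46 ± 0.15, with values of 0.30, 0.54 and 0.55, and 0.30 with the LIF labels exchanged and 0.31 averaged over its probe sets. Ppard, a fatty acid receptor, had a difference of 0.61 ± 0.27 with a 95% interval of 0.03 to 1.19, and 0.30 averaged over its probe sets. Rxra, the shared partner of the RAR proteins, had 0.43 ± 0.24, with 0.23 under exchanged LIF labels and 0.18 averaged over probe sets. Rara and Rarg had 0.13 ± 0.26 and 0.33 ± 0.20. Rarb is described although the naming rule does not select it, and was chosen after its values were seen. Its controls lay at the floor in both genotypes, between 1.78 and 29.1 units, and its RA signals were 102, 76.8 and 119 units in wild type and 110, 96.7 and 96.1 in the knockout. The RA groups overlapped, and the difference of 0.04 ± 0.45 changed sign with a floor of 100 units, with log2(signal + 32) and without replicate 2.

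Several of the genes with the largest rises had positive differences. H2-Bl, a class I histocompatibility gene, read 32.3, 81.2 and 39.1 units in wild-type controls and 270, 403 and 169 with RA. The knockout arrays gave 50.1, 51.2 and 32.5 units in controls and 434, 613 and 311 with RA. RA lifted all arrays above all controls in both genotypes, and the RA groups overlapped. Most controls lay at or near the floor, so the folds are lower bounds. H2-Bl rose at least 4.49-fold in wild type and at least 8.64-fold in the knockout (limma adjusted p = 0.00215 and 0.000516). Its difference was 0.95 ± 0.33, with values of 0.68, 1.27 and 0.88 and an unadjusted limma p of 0.0129. Class I genes are near-identical copies of each other, so the probe set may read more than 1 of them.

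Ltbp3, a matrix protein that holds latent TGF-beta, read 96.8, 166 and 122 units in wild-type controls and 353, 383 and 362 with RA. It read 84, 166 and 106 units in knockout controls and 520, 884 and 511 with RA. The knockout RA arrays all lay above the wild-type RA arrays and the controls overlapped. Ltbp3 rose 2.93-fold in wild type and 5.42-fold in the knockout (limma adjusted p = 0.00316 and 0.000282), a difference of 0.89 ± 0.26 with values of 0.76, 1.20 and 0.70. Its unadjusted limma p was 0.00433. The difference of Ltbp3 was 0.33 with the LIF labels exchanged and 0.34 as the mean over its 4 probe sets, of which 2 lay at the floor on every array and the third gave 0.46.

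Adgra2, a receptor that acts with Wnt7 ligands, lay at the floor on all 6 controls, so its difference is that between the RA signals. These were 201, 170 and 194 units in wild type and 293, 258 and 364 in the knockout, which do not overlap. Adgra2 rose at least 3.75-fold in wild type and at least 6.04-fold in the knockout (limma adjusted p = 0.00611 and 0.00143), with a difference of 0.69 ± 0.36. Prrx2, a homeobox gene of limb and face mesenchyme, rose by 1.68 ± 0.17 in wild type and by 2.41 ± 0.27 in the knockout (limma adjusted p = 0.00108 and 0.00232). Its 3 differences were 1.16, 0.12 and 0.90. Both genes rose in each genotype, and neither difference was called.

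Cdx1, a direct RA target that patterns the body axis, read 42.2, 38.5 and 105 units in wild-type controls and 639, 337 and 880 with RA. It read 7.67, 35.5 and 53.5 units in knockout controls and 1009, 401 and 806 with RA, and the RA groups overlapped. Cdx1 rose by 3.17 ± 0.23 in wild type and by 3.75 ± 0.27 in the knockout (limma adjusted p = 0.000169 and 0.000282). The difference was 0.58 ± 0.29, and 0.28 with a floor of 100 units, under which most of the controls fall. Of 24 Hox and Cdx genes listed, 21 were measured and 5 tested, of which Cdx1 and Hoxb4 rose. Hoxb4 rose by 1.43 ± 0.30 in wild type and by 1.50 ± 0.28 in the knockout (limma adjusted p = 0.0335 and 0.026). Its difference of 0.07 ± 0.39 turned to -0.59 with a floor of 25 units, -0.32 with log2(signal + 32) and -0.10 without replicate 1, and was 0.18 with the LIF labels exchanged.

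The mean differences of other strongly induced genes lay between -0.24 and 0.25, with standard errors of up to 0.37. Ankrd44, an ankyrin repeat protein, read 274 to 284 units in wild-type controls and 945 to 1084 with RA, and 276 to 301 and 1052 to 1259 units in the knockout. It rose in both genotypes (1.83 ± 0.13 and 2.03 ± 0.14, limma adjusted p = 0.000169 and 0.000237), with differences of 0.15, 0.23 and 0.22 a 95% interval from -0.20 to 0.60, and 0.029 averaged with its 3 other probe sets, which reached 100 units on no array. Aqp3, a channel for water and glycerol, rose by 2.74 ± 0.22 in wild type and by 2.50 ± 0.25 in the knockout (limma adjusted p = 0.000255 and 0.00143). The differences of Aqp3 were -0.14, -0.59 and 0.01, with a mean of -0.24 ± 0.17. The mean was -0.065 without replicate 2, -0.36 without replicate 3 and -0.038 averaged over probe sets. Cidea, a lipid droplet protein, lay at the floor on all controls and read 216 to 270 units with RA in wild type and 259 to 376 in the knockout. Its difference was 0.25 ± 0.35, with 0.69 at a floor of 25 units, 0.39 without replicate 1 and 0.13 without replicate 3. Dleu7 and Tmtc1 rose in each genotype, and their differences of -0.16 ± 0.37 and 0.20 ± 0.33 changed sign under an alternative, Dleu7 to 0.47 with a floor of 25 units (and -0.31 with the LIF labels exchanged) and Tmtc1 to -0.07 with the LIF labels exchanged.

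Kit, the receptor for stem cell factor, rose in wild type from 314, 498 and 483 units to 1241, 976 and 744 (1.19 ± 0.22, limma adjusted p = 0.0163). Knockout cells had 556, 906 and 794 units in the controls and 1335, 1028 and 1288 with RA (0.71 ± 0.18, limma adjusted p = 0.0952). The knockout controls lay above all wild-type controls, and the RA groups overlapped. The differences of Kit were -0.72, -0.79 and 0.07, and a further probe set gave 0.21 in place of -0.48. The mean difference of Kit was -0.29 with the LIF labels exchanged, -0.13 averaged over probe sets and -0.75 without replicate 3.

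Among genes called lower, Slc27a2, a fatty acid transporter and acyl-CoA synthetase, had the largest fall. It went from 462, 580 and 178 units to 116, 143 and 42 in wild type, and from 346, 375 and 320 units to 120, 182 and 134 in the knockout. Slc27a2 fell in both genotypes (-1.95 ± 0.20 and -1.28 ± 0.20, limma adjusted p = 0.00108 and 0.0119). Its difference was 0.67 ± 0.28, with values of 0.46, 0.97 and 0.58, and 0.33 with a floor of 100 units. Sox11, a transcription factor of neural progenitors, went from 348, 210 and 522 units to 62.8, 94.3 and 188 in wild type (-1.70 ± 0.26, limma adjusted p = 0.00856). Knockout cells had 436, 140 and 314 units in controls and 118, 108 and 189 with RA (limma adjusted p = 0.143), and the differences of Sox11 were 0.58, 0.78 and 0.74, with a mean of 0.45 at a floor of 100 units and 0.33 averaged over probe sets. Fst, which binds and blocks activin, had -1.58 ± 0.23 and -1.05 ± 0.29 and a difference of 0.54 ± 0.35, or 0.34 without replicate 1. Id2, an inhibitor of basic helix-loop-helix factors, fell in both genotypes (limma adjusted p = 0.00257 and 0.00914). Its difference was -0.18 ± 0.24, changed sign without replicate 3, and was -0.35 without replicate 2, -0.36 with a floor of 100 units and -0.53 with the LIF labels exchanged. Ddx58, the cytosolic RNA sensor RIG-I, fell by 1.04 ± 0.12 in wild type and by 0.85 ± 0.12 in the knockout (limma adjusted p = 0.00156 and 0.00889), a difference of 0.19 ± 0.17 that was 0.032 without replicate 3, 0.31 without replicate 2 and 0.0099 averaged over probe sets.

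Otx2, a homeobox gene of the primed state and the forebrain, read 228, 165 and 19 units in wild-type controls and 1352, 215 and 120 in knockout controls, the first of these on the array whose LIF label the Socs3 signal goes against. With RA all 6 arrays lay at the floor, between 1.15 and 46.9 units, so each response is limited by the floor and the difference is that between the controls. The value was -1.40 ± 0.45 with replicates of -2.57, -0.39 and -1.26, and it was -0.82 without replicate 1. Otx2 fell in the knockout (limma adjusted p = 0.0341), with a limma adjusted p of 0.18 in wild type.

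Signalling groups showed members on both sides. Of 14 Wnt pathway genes tested, 7 were positive and 7 negative, with a median of -0.01, and 9 (64.3% beside 23.6% of all genes) kept one sign in all 3 replicates. The list holds 19 genes, of which 17 were measured. Unadjusted p under 0.05 was reached by 5 of them (35.7% beside 3.72% of all genes): Lgr4, Tcf7l1, Nkd1, Sfrp1 and Wnt4. The gene lists were chosen with earlier results of these data known, so these shares are no independent evidence. Lgr4, the R-spondin receptor that strengthens Wnt signals, read 1925, 1795 and 2296 units in wild-type controls and 1743, 1946 and 1729 with RA. Signals of the knockout were 2364, 2026 and 2032 units in controls and 1174, 1445 and 1353 with RA. The knockout RA arrays lay below all other arrays. Lgr4 fell in the knockout (-0.69 ± 0.13, limma adjusted p = 0.0243), with -0.15 ± 0.11 in wild type (limma adjusted p = 0.663). The difference of Lgr4 was -0.55 ± 0.16, with values of -0.87, -0.60 and -0.18 and an unadjusted limma p of 0.00436. Its mean over 2 probe sets was -0.27, the second being at the floor on all arrays. Tcf7l1, a repressor of Wnt targets in ES cells, had a difference of -0.44 ± 0.17 by the probe set used, -0.22 without replicate 1, and 0.18 by the other probe set. Sfrp1, a secreted Wnt inhibitor, had 0.43 ± 0.19, with 0.26 under exchanged LIF labels and likewise without replicate 1, 0.65 without replicate 2, and -0.17 to 0.39 by its 4 other probe sets. Wnt4, a Wnt ligand, had 1.15 ± 0.52, with 0.25 at a floor of 100 units and 1.85 at one of 25. Nkd1, a feedback inhibitor, had -1.07 ± 0.49. It read 18.9, 102 and 26.7 units in wild-type controls and 89.6, 86.4 and 125 with RA. Knockout cells had 30.5, 100 and 91.4 units in controls and 41.1, 74.8 and 31.2 with RA. Every group but wild-type RA held arrays under the floor, so the difference of Nkd1 depends on the floor. Its value at other floors is not given here.

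Of 16 Nodal and TGF-beta genes tested of 19 listed, 7 were positive and 9 negative, with a median of -0.02. Lefty1, a secreted inhibitor of Nodal, rose in wild type (0.73 ± 0.10, limma adjusted p = 0.00329), with 0.49 ± 0.15 in the knockout (limma adjusted p = 0.153), and its difference of -0.24 ± 0.17 was -0.018 with the LIF labels exchanged and -0.39 without replicate 2. Its level was lower in the knockout on every array, at 344 to 771 units against 1058 to 2194 in wild type. Inhbb, a subunit of activin, rose in both genotypes (limma adjusted p = 0.014 and 0.0499), with differences of -0.26, -0.27 and -0.07 and a mean of -0.12 with the LIF labels exchanged in place of -0.20. Skil, a repressor of SMAD targets, had -0.31 ± 0.14, and -0.13 with the LIF labels exchanged. Acvr2b, an activin receptor, read lower with RA in all 3 wild-type replicates and higher in all 3 knockout ones, with a difference of 0.44 ± 0.19 that was 0.03 as the mean over its 3 probe sets.

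Among 18 genes of extraembryonic endoderm tested of 21 listed, 11 were positive and 7 negative, with a median of 0.01. Gata6, a factor that specifies primitive endoderm, read 165, 220 and 369 units in wild-type controls and 306, 475 and 853 with RA. The knockout arrays gave 14.4, 63.9 and 41.2 units in controls and 175, 154 and 223 with RA. Both knockout groups lay below the wild-type group of the same treatment. Gata6 rose by 1.07 ± 0.15 in wild type and by 1.74 ± 0.31 in the knockout (limma adjusted p = 0.00589 and 0.0228). The difference of 0.67 ± 0.30 depended on the floor, at -0.21 with 100 units and 1.10 with 25, and on the probe set, since a second one with 5 arrays at 100 units gave -0.90 and the mean over all gave -0.05. With the LIF labels exchanged it was 0.32. Col4a1, a basement membrane collagen, had 0.41 ± 0.16, and 0.23 without replicate 1. Lamb1, a laminin subunit, fell in the knockout (limma adjusted p = 0.0258), and its difference of -0.39 ± 0.19 stands beside 1.16 from another probe set and 0.24 from the mean over all 4. It was -0.61 without replicate 2 and -0.14 without replicate 3.

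Genes of pluripotency showed the narrowest differences of the larger lists, from -0.24 to 0.25 over 28 genes, with 15 positive, 13 negative and a median of 0.01. Of these, 0 reached an unadjusted p under 0.05 in limma, beside 3.72% of all genes. In a list of 28 such a count lies near that share and is no result about these genes. All 28 listed genes were bright enough to test, and whether signal level sets the narrow range was not tested. Pou5f1, which encodes Oct4, read 11434 to 15815 units on the 6 control and RA arrays of wild type and 10982 to 17750 in the knockout, with a difference of 0.23 ± 0.13, or 0.13 without replicate 1. Nanog had -0.01 ± 0.13 and Sox2 0.19 ± 0.17. Dppa2 and Dnmt3l changed with RA in both genotypes, up and down, with differences of 0.07 ± 0.15 and -0.06 ± 0.13. In the LIF-STAT3 list, 11 of 16 genes were positive with a median of 0.09. Of 9 neural genes tested of 19 listed, 7 were positive with a median of 0.14. Gbx2, a homeobox gene of the hindbrain boundary that LIF also maintains, had differences of 0.62, 0.51 and 0.28, and a mean of 0.47 ± 0.14 with an unadjusted limma p of 0.0045.

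**Figure D3:**
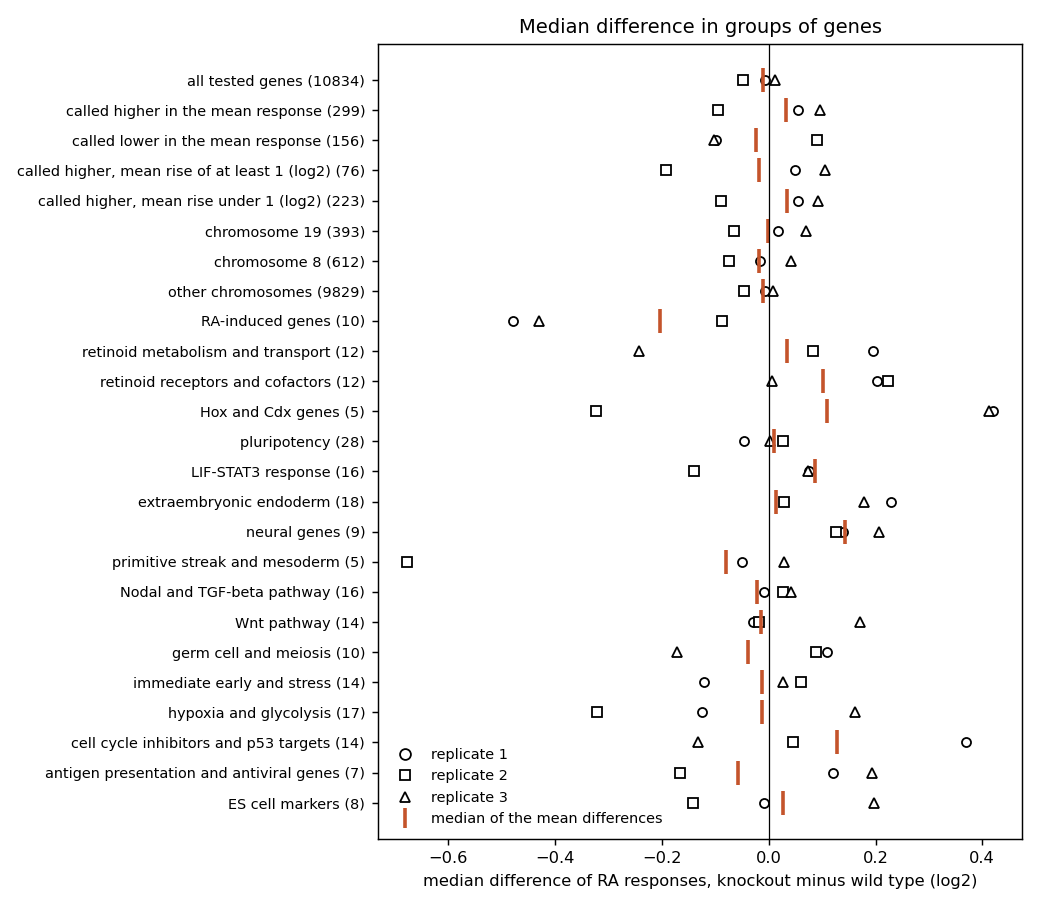
Median difference of responses (knockout minus wild type, log2) in 25 groups of genes, all genes included, with at least 5 tested members, the number tested in brackets. Open symbols are the medians in replicates 1, 2 and 3 and the orange bar is the median of the mean differences. The medians of the mean differences lie between -0.20 and 0.14, with the lowest for the RA-induced genes.

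In the other lists, 14 immediate early and stress genes split into 7 positive and 7 negative with a median of -0.01. Hypoxia and glycolysis genes split into 8 and 9 of 17 with a median of -0.01, and Slc2a1, the glucose transporter GLUT1, had differences of -0.20, -0.34 and -0.42. Of 14 cell cycle inhibitors and p53 targets, 8 were positive with a median of 0.13, and Sesn2, a stress protein that restrains mTORC1, had 0.44 ± 0.20, or 0.22 without replicate 1. Germ cell and meiosis genes split into 5 and 5 of 10, with a median of -0.04. Of 7 antigen presentation and antiviral genes tested, 3 were positive, and Irf1, an interferon-responsive factor, had -0.57 ± 0.26 with a replicate at -1.47 beside -0.03 and -0.21, and was -0.12 without replicate 2, which held the -1.47. Of 5 primitive streak and mesoderm genes, 1 was positive. Of 3 fibroblast feeder markers tested, all had a positive difference, among them Thy1 with 0.14 ± 0.22, which changed sign without replicate 2 and was 0.27 without replicate 3 and with the LIF labels exchanged. Over the 393 tested genes of chromosome 19, which carries Cyp26a1, the median difference was -0.00081. An unadjusted limma p under 0.05 was reached by 6.11% of them, beside 5.23% of the 612 on chromosome 8 and 3.53% on the other chromosomes. The others were pooled, so how far such shares vary between single chromosomes is not shown. The cause was not tested.

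Beside Cyp26a1, the genes that follow had some of the largest differences, and none had a called mean response. Nwd1, an NACHT and WD repeat protein, read 57.2, 264 and 141 units in wild-type controls and 126, 96.6 and 85.2 with RA. Knockout cells had 32, 48.9 and 140 units in the controls and 203, 216 and 260 with RA, so that the knockout RA arrays exceeded all wild-type RA arrays. Nwd1 rose in the knockout (1.67 ± 0.31, limma adjusted p = 0.0243), with -0.35 ± 0.43 in wild type (limma adjusted p = 0.823). The difference was 2.02 ± 0.46 with values of 0.88, 3.56 and 1.62. It was called without replicate 1 (2.59, limma adjusted p = 0.00113) and without replicate 3 (2.22, limma adjusted p = 0.0142), and was 1.25 without replicate 2.

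G0s2, an inhibitor of lipolysis, had 3 like differences of 1.61, 1.50 and 1.54. It read 128, 110 and 181 units in wild-type controls and 75.6, 49.5 and 107 with RA. Signals of the knockout were 82, 97.4 and 89 units in controls and 148, 125 and 153 with RA. The difference was 1.55 ± 0.36 with an unadjusted limma p of 0.000846, and 0.92 with a floor of 100 units. In all, 185 genes (1.71%) had all 3 wild-type responses on one side of 0 and all 3 knockout responses on the other. Bmp8a, a bone morphogenetic protein, and Engase, a cytosolic glycosidase, were of the same kind as G0s2, with 1.40 ± 0.37 and 1.39 ± 0.40, and 0.74 and 0.53 with a floor of 100 units.

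Fxyd5, a regulator of the sodium pump, went the opposite way. It read 51, 50.8 and 101 units in wild-type controls and 150, 98.7 and 122 with RA, and 130, 105 and 89.7 units in knockout controls and 55.6, 68.2 and 52 with RA. The difference was -1.81 ± 0.45, with -0.44 at a floor of 100 units and -1.19 with the LIF labels exchanged. Cd8a, a T cell coreceptor, had -1.66 ± 0.43, with no array above 153 units, and -0.36 with a floor of 100 units. Col27a1, a fibrillar collagen, had the most negative difference, -1.93 ± 0.40 with values of -2.15, -0.97 and -2.67, with -1.12 as the mean over its 2 probe sets and -1.04 with a floor of 100 units. Msx3, a dorsal neural tube factor, had -1.50 ± 0.46, with -0.21 and -2.81 at floors of 100 and 25 units and -0.96 with the LIF labels exchanged. Adamts16, Zfp128, Depp1 and Nags had positive differences from 1.39 to 1.64, and Bhlha15 and Tmem125 had -1.21 each. With a floor of 100 units the differences were 0.66 for Adamts16, 0.74 for Zfp128, 0.70 for Depp1, 0.27 for Nags and -0.68 for Tmem125. Without replicate 3 they were 0.67 for Adamts16 and -0.57 for Tmem125. Averaged over probe sets Depp1 had 0.70 and Tmem125 -0.46, and Tmem125 had -0.66 with the LIF labels exchanged. None of these genes was called.

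**Figure D4:**
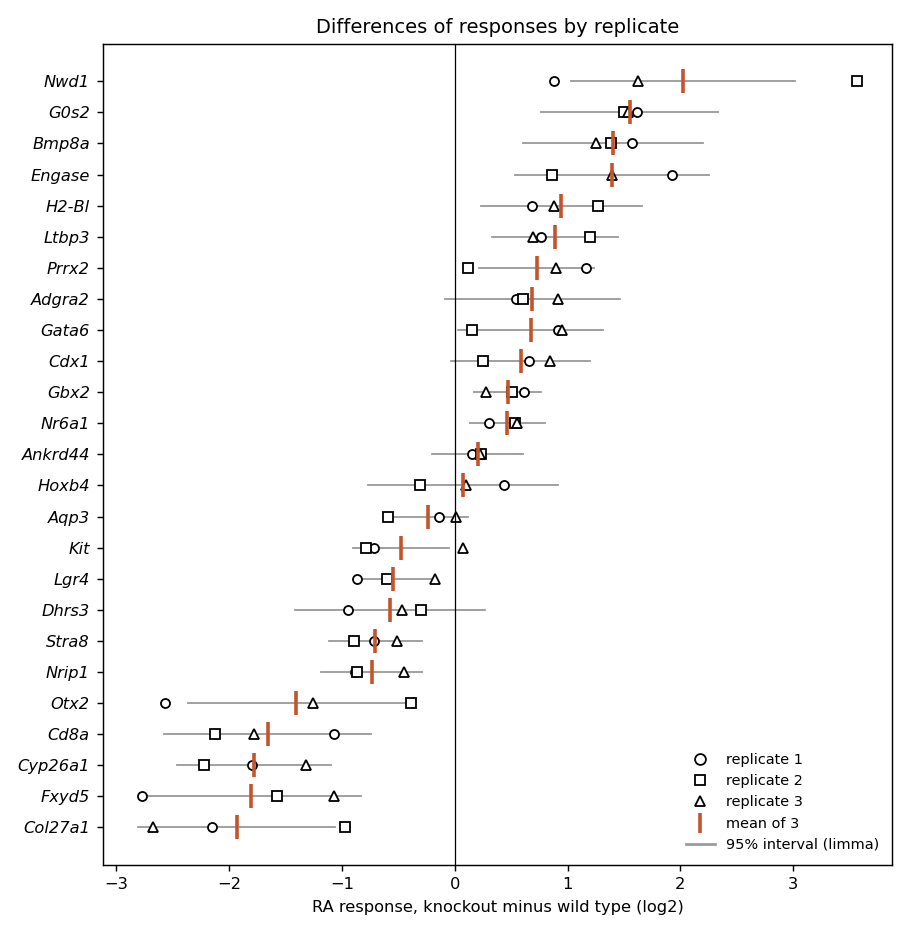
Difference of responses (knockout minus wild type, log2) of 25 named genes. Open symbols are replicates 1, 2 and 3, the orange bar is their mean and the grey line is the 95% interval from limma. Nwd1, Otx2 and Col27a1 spread widely over the replicates, while the 3 values of G0s2, at 1.50 to 1.61, and of Ankrd44, at 0.15 to 0.23, lie close together.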

How the data were processed

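Total RNA of 18 samples was hybridised to single-colour Affymetrix arrays. The intensity values that the authors deposited are on a linear scale, with a value for each probe set on each array, and were made with MAS5 per the submitters' processing notes. Its settings are not stated there. In the table each array already has a trimmed mean of 500 (2% off either end). Of 45101 probe sets, 34958 had 1 gene symbol in the platform annotation, 932 had several and name no gene here, and 9211 were not listed. By Entrez number 34754 matched RefSeq, which changed 0 symbols.

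Each array was scaled to a trimmed mean of 500, floored at 50 units and put on the log2 scale. The probe set with the highest mean stood for a gene, which gave 18194 genes. A gene was tested if at least 2 arrays reached 100 units. A fold against a group at the floor is written "at least". Per gene the 3 differences, or the 3 responses, were tested against 0 with limma 3.58.1 in R 4.3.3 (lmFit, eBayes with an intensity trend, two-sided), with Benjamini-Hochberg adjustment over all genes. The fit was tested on simulated data with normal spread and no floor, so that test does not cover values at the floor. Arrays carry no count depth, and their number limits the precision. Cell culture repeats are stated, but not whether they were independent, so the p-values cover only the spread among these arrays, possibly a technical one.

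Replicate numbers come from the titles. For the 2 wild-type sets without a number, the set named like the first arrays was taken as 1 and the other as 2. The mean difference does not depend on this, only its error does. Deviations from the group means correlated at 0.139 to 0.52 for the 18 same-number pairs and at -0.424 to 0.088 for the 36 other pairs. Deviations sum to 0 within a group, so positive same-number values push the others down and part of this gap is built in. The replicate 1 controls of the 2 genotypes, which go against their LIF labels, correlated at 0.515. What arrays of one number share was not tested.

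The comparison and 18 gene lists were chosen with earlier results of these data known. Genes are named by rule: Cyp26a1, the 12 largest differences each way at an unadjusted p under 0.05 with 3 of one sign, the 12 largest rises and 6 largest falls of the mean response, up to 4 members of each list with the smallest p, and the 4 largest opposite responses each way. The text describes a part of these. Other members listed beside a list's count were chosen after their values were seen. Alternatives covered the block, pairing, floor, log offset, normalization, filter, probe sets, variance trend, each replicate left out, exchanged LIF labels, and leaving out chromosomes 8 and 19.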

Additional observations from a re-analysis of the deposited data

Results flagged for a closer look

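In 6 of the genes described above, all 3 wild-type responses went one way and all 3 knockout responses the other. All but Acvr2b meet the naming rule for such splits, so this count follows from the choice of genes. The difference of responses (log2, knockout minus wild type) was 0.44 for Acvr2b, 1.40 for Bmp8a, 1.39 for Engase and 1.55 for G0s2. It was -1.66 for Cd8a and -1.81 for Fxyd5. These directions were read from the arrays without a test of their own, and limma called none of the differences (adjusted p = 0.998). Among all genes tested, 185 (1.71%) showed such a split. Socs3, on the control arrays labelled without LIF that enter no comparison, stood at 3800 units (wild type) and 4551 units (knockout), above the 367 and 215 units on the replicate 1 arrays labelled with LIF. Why the labels and the signals part was not tested.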

How the results depend on the processing

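The difference of responses gave 0 calls under each alternative, with and without the replicate block, other than leaving out replicates, which gave 0 to 36. Cyp26a1 ranged from -2.01, called, to -1.56 when 1 replicate was left out, and was -2.18 with a floor of 100 and -1.44 with one of 25. The mean response kept 454 of its 455 genes in the same direction with the LIF labels exchanged. It had 455 calls, and 304 (12 arrays) or 383 (16 arrays) without a replicate block, 775 with the block as a term over 12 arrays, 968 with the 2 unnumbered wild-type sets exchanged, 52 with no filter, 243 averaging probe sets, 93 without a variance trend, 1502 with the LIF labels exchanged and 50 to 1257 with 1 replicate left out. The wild-type response had 282 calls, and in turn 85 or 103 without the block, 1 with no filter, 81 averaging probe sets, 39 without a trend, 430 with labels exchanged and 171 to 545 with 1 replicate left out. The knockout response had 196 calls, and 74 or 109 without the block, 305 with it as a term, 120 with a floor of 100, 0 with no filter, 54 averaging probe sets, 50 without a trend, 611 with labels exchanged and 50 to 413 with 1 replicate left out. Of 940 differences of 57 genes under 17 settings, 925 kept their direction. The 15 that turned were Dleu7 (0.47 with a floor of 25, 0.094 with log2(signal + 32), and -0.53 to 0.097 with 1 replicate left out), Tmtc1 (-0.068, labels exchanged), Hoxb4 (-0.59 and -0.32 in the first 2 settings of Dleu7, and -0.10 to 0.27 with 1 replicate left out), Gata6 (-0.21 with a floor of 100, -0.050 averaging probe sets), Id2 (-0.35 to 0.024 with 1 replicate left out), Lamb1 (0.24 averaging probe sets), Thy1 (-0.044 to 0.27 with 1 replicate left out) and Rarb (-0.050 with a floor of 100, -0.023 with log2(signal + 32), -0.10 to 0.22 with 1 replicate left out). The cause was not tested.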
